A study of Mus musculus with 12 samples.

Results

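The 10 genes described here are genes of skeletal muscle identity: the myogenic regulators Myod1, Myf5, Myf6, Myog, Pax7 and Mef2c, and the muscle structural and energy genes Des, Acta1, Ckm and Tnnt3. They were chosen by name, and every CpG from 2000 bp upstream of the start of each gene to its end was taken (mm9, GENCODE vM1). They are 10 of 22380 protein-coding genes of the annotation, and hold 1710 of the 5202461 CpG cytosines that had a read in any sample. DNA methylation was measured by enhanced reduced representation bisulfite sequencing (ERRBS), in which DNA is cut with MspI at CCGG sites, then bisulfite-treated before sequencing, and each read at a CpG is counted as methylated or unmethylated.

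Female B6C3F1/J mice of 8 weeks received vehicle (DMSO), DBP (dibenzo[def,p]chrysene, a polycyclic aromatic hydrocarbon carcinogen), DBP with a chemopreventive agent whose name is not in the labels, or DBP with the chemopreventive agent called BR extract. DBP was applied topically in the mouth, 24 nmol at each of 3 weekly applications over 5 weeks, and tissue was taken 48 h after the last dose. Each group had 3 samples, and the dose and route of the agents are not given in the sources used here. Buccal mucosa, floor of the mouth and soft tissue attached to the hard palate were pooled for each DNA extraction, so a percentage is an average over muscle, epithelium and every other cell type present. A change in the share of muscle cells and a change in methylation within them cannot be told apart. The labels do not state that the 3 samples of a group were separate animals. The p-values for promoters and bodies therefore measure the spread between these samples. The q-values for single CpGs come from reads pooled within a group and include no such spread.

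Muscle cells are built by a cascade of transcription factors. Pax7 marks satellite cells, the resident muscle stem cells, and Myf5 and Myod1 commit cells to the muscle lineage. Myog and Myf6 act in differentiation, and Mef2c works with them on muscle promoters. Des encodes the intermediate filament desmin, Acta1 the skeletal actin of the thin filament, Tnnt3 a fast-fibre troponin T, and Ckm the muscle creatine kinase. CpG methylation near a start site is often high where a gene is silent, while CpG-rich starts are mostly unmethylated whether or not the gene is used.

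The sequenced libraries held between 3287367 and 78889043 CpG reads. The 6 libraries of DMSO and DBP held 3287367 to 7974299, and the 6 libraries with an agent 16908728 to 78889043, with no overlap. Depth therefore cannot be told apart from the agents in the comparisons of each agent with DBP. Between 29.3% and 41.3% of reads were methylated in a library, highest in DMSO sample 3 and lowest in sample 1 of DBP with BR extract, which was also the deepest. The 10 genes received between 1465 reads (DMSO sample 3) and 38538 reads (sample 1 of DBP with BR extract). Of 1413 CpGs with any read, 508 had at least 10 reads in at least 1 sample, 167 in at least 6 samples, and 23 in all 12. These 23 lay in Des (14 CpGs), Pax7 (6) and Ckm (3), so single CpGs of the other 7 genes could not be followed through every library.

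The measured CpGs were clustered where the MspI fragments lie. The stretches printed here hold CpGs with at least 10 reads in at least 5 samples, in the 8 genes that had any, and carry the levels and most of the single-CpG differences described further on. For Pax7 the stretch with the most such CpGs and the one around a CpG that differed with both agents are given, out of 5. Myf6 and Tnnt3 had no such stretch. The sequences were read from the mm9 genome and are written on the gene's strand, and capitals mark the measured CpGs.
Myod1, coding exon, chr7:53632052-53632234, plus strand: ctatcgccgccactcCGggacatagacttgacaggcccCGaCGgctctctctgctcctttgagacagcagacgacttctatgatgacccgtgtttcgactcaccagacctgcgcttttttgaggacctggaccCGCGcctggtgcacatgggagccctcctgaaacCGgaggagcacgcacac
Myog, coding exon, chr1:136186748-136186787, plus strand: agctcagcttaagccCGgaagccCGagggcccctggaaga
Des, upstream, chr1:75356605-75356686, plus strand: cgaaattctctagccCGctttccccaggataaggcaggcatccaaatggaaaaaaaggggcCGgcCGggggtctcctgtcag
Des, coding exon, chr1:75356994-75357263, plus strand: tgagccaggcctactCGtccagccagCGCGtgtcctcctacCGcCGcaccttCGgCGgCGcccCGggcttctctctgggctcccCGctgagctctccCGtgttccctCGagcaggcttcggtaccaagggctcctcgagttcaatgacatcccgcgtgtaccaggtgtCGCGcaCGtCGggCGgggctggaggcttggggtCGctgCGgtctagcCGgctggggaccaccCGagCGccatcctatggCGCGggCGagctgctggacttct
Ckm, coding exon, chr7:19999598-19999649, plus strand: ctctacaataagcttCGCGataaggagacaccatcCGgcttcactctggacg
Ckm, coding exon, chr7:20005530-20005593, plus strand: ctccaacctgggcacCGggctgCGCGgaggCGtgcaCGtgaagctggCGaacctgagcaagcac
Acta1, coding exon, chr8:126416784-126416839, minus strand: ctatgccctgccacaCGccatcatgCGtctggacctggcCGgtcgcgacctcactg
Myf5, coding exon, chr10:106921100-106921161, minus strand: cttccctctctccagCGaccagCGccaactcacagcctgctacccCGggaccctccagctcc
Pax7, intron, chr4:139377541-139377692, minus strand: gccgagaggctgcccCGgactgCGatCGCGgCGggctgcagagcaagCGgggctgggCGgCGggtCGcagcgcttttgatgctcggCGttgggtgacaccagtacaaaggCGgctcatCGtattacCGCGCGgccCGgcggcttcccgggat
Pax7, intron, chr4:139378322-139378353, minus strand: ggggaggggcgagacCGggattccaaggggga
Mef2c, intron, chr13:83662680-83662790, plus strand: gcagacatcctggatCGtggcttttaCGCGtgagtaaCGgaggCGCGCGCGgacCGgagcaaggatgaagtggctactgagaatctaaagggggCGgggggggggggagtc

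In mm9 the regulators lie at chr7:53631844-53634462 (Myod1, plus strand), chr1:136186581-136189124 (Myog, plus), chr4:139292977-139389445 (Pax7, minus) and chr13:83643033-83806684 (Mef2c, plus). Myf5 (chr10:106919964-106923190) and Myf6 (chr10:106929916-106931785), both on the minus strand, are neighbours on the same chromosome. Des lies at chr1:75356904-75365154 (plus), Acta1 at chr8:126415669-126418651 (minus), Ckm at chr7:19996443-20006932 (plus) and Tnnt3 at chr7:149684741-149701914 (plus). The number of CpGs with at least 10 reads in any sample was 252 in Pax7, 72 in Des, 58 in Ckm, 39 in Acta1, 34 in Mef2c, 21 in Myod1, 12 in Tnnt3, 10 in Myf5, 7 in Myog and 3 in Myf6.

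Across the 12 samples the promoters (1000 bp either side of the start, all reads pooled) fell into low, intermediate and high levels. Pax7 was at 9.12% ± 3.23 (SD, n = 12), Des at 11.7% ± 3.01 (n = 12) and Myod1 at 12.3% ± 3.23 (n = 12), and these neighbours differed by less than their SDs. Acta1 stood at 36.5% ± 14.4 (n = 10), Ckm at 41.5% ± 8.34 (n = 11) and Myf6 at 42.9% ± 18.1 (n = 6), again within their SDs of each other. Myog was at 83.1% ± 6.05 (n = 12) and Myf5 at 84.8% ± 8.28 (n = 10). The n counts samples with at least 10 reads in the promoter. These reads lay on different sides of the start. The nearest 500 bp upstream held 5 reads in Myog and 5 in Myf5, against 1281 and 406 in the gene's first 500 bp. Myf6 had 202 of its 203 promoter reads in that first window. In Acta1 609 of 680 reads, and in Ckm 1113 of 1217, lay in the nearest 500 bp upstream. The Myog, Myf5 and Myf6 levels therefore describe CpGs after the start, and say little about CpGs upstream of it. The lowest Acta1 sample (20.3%) lay above the highest Myod1 sample (16.9%). Between the intermediate and the high promoters the ranges met, since 1 Myf6 sample reached 74.5% and the lowest Myog sample was at 73.1%. Mef2c had 26 promoter reads in all and Tnnt3 39, too few to place either gene.

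**Figure D1:**
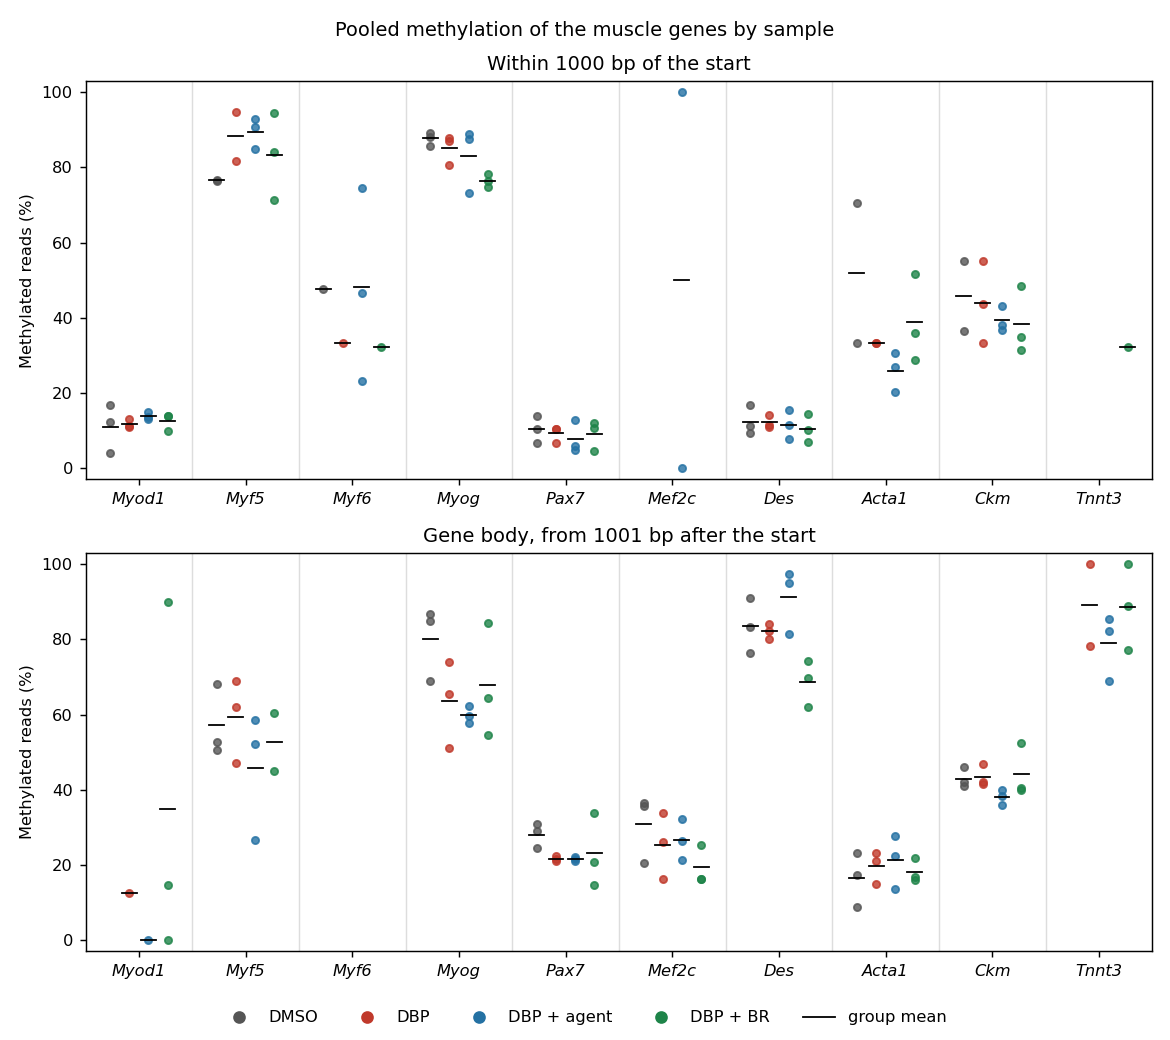
Percent of methylated reads (vertical axis) pooled within 1000 bp of the start (top) and in the gene body (bottom) for each of the 10 genes. Each point is a sample with at least 10 reads, coloured by group, and a short line is the group mean. Pax7, Des and Myod1 promoters lie below 17% in every sample, and Myog promoters above 73%.

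All 8 promoters with enough reads ranked above the middle of the genome. The median of 14932 promoters with at least 100 reads over all samples was 6.19%, with 81.6% of them under 20% and 5.51% over 80%. Of these promoters 72.3% were lower than Pax7, 73.7% lower than Des and 77.3% lower than Myod1. The shares were 86.2% for Acta1, 87.1% for Ckm, 89.2% for Myf6, 94.3% for Myog and 96.5% for Myf5. The low promoters were also the richest in CpGs. They held 91 (Myod1), 109 (Pax7) and 110 (Des) CpGs within 1000 bp of the start, above the median of 60 over all genes. The intermediate and high ones held 27 (Ckm), 31 (Acta1), 33 (Myf6), 44 (Myog) and 49 (Myf5), and Mef2c (19) and Tnnt3 (13) held the fewest. Within the second set Ckm, with the fewest CpGs, was lower than Myog and Myf5. The E-box CAGCTG, a motif of the MyoD family that reads the same on both strands, occurred once in the window from 250 bp before to 50 bp after the start in Myod1, Pax7, Des, Acta1, Ckm and Tnnt3, and 15.2% of such windows of all genes hold it.

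Single samples showed how firm these levels were. For Myod1 the DMSO promoters were at 16.9%, 12.3% and 3.92%, the DBP promoters at 13.0%, 11.2% and 10.97%, those with the agent at 15.01%, 13.1% and 13.6%, and those with BR extract at 13.8%, 13.9% and 9.93%. The lowest, DMSO sample 3, rested on 51 reads, with a 95% Wilson interval from 1.08% to 13.2%. Such intervals cover counting error only. For Myog, the DMSO promoters were at 89.2%, 88.2% and 85.7%, the DBP promoters at 87.9%, 87.0% and 80.6%, those with the agent at 87.5%, 73.1% and 88.8%, and those with BR extract at 74.7%, 76.5% and 78.3%. Only 17 to 62 reads lay behind each DMSO and DBP value of Myog. The high Myog level and the low Myod1 level were seen in every library.

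The Des promoter was sampled most deeply, with 279 to 6525 reads per library. DMSO samples were at 9.35%, 16.7% and 11.1%, DBP samples at 11.4%, 10.8% and 14.3%, those with the agent at 15.5%, 11.4% and 7.72%, and those with BR extract at 7.004%, 14.3% and 10.2%. The 4 groups overlapped throughout. Pax7 was alike, with DMSO promoters at 10.3%, 14.0% and 6.67% and DBP promoters at 10.5%, 10.5% and 6.77%. With the agent the Pax7 promoters were at 12.7%, 4.76% and 5.97%, and with BR extract at 12.0%, 4.47% and 10.8%.

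The Ckm promoter was at 55.1%, 36.4% and 25% in DMSO, the last on 8 reads, and at 55%, 33.3% and 43.6% in DBP. With the agent it was at 38.1%, 36.9% and 43.2%, and with BR extract at 31.4%, 48.4% and 34.8%. The Acta1 promoter had 5 to 295 reads in a library and ranged from 20.3% to 70.6% among libraries with at least 10, the highest being DMSO sample 2 with 17 reads. The Myf5 promoter ranged from 71.4% to 94.7% among such libraries. It was at 75%, 76.7% and 76.5% in DMSO and at 94.7%, 81.8% and 77.8% in DBP, which did not overlap, but DMSO sample 1 rested on 8 reads and DBP sample 3 on 9, so no test was made. In the same way the agent samples of Acta1, at 26.9%, 30.6% and 20.3%, lay below the DBP samples, at 40%, 33.3% and 33.3%, of which the first rested on 5 reads.

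Des, a CpG-rich gene, had a stepped profile along its length. The 500 bp before the start were at 47.7% ± 11.2 (n = 12), the first 500 bp of the gene at 8.24% ± 2.24, the next 500 bp at 19.5% ± 5.10, and the rest of the body at 81.4% ± 10.2 (all n = 12). In the coding exon printed above, 20 of 25 measured CpGs had a mean under 20%, with a median of 1.58%. The upstream stretch held 3 CpGs with means between 52.5% and 58.9%. The first 500 bp thus had the lowest level of these windows. Low CpGs also lay outside it, at -55 bp (5.76% ± 3.83, n = 5) and +721 bp (7.13% ± 7.67, n = 9). The windows on either side included CCGG sites, which read higher across the series, as given below. Such sites were at -238 and -234 bp, and at +769 bp (63.2% ± 14.8, n = 9), while the upstream CpG at -284 bp was not in one. Pax7 fell from 28.7% ± 13.0 (n = 11) between 500 and 1000 bp upstream to 6.23% ± 3.09 (n = 12) between 500 and 1000 bp into the gene. In that upstream window the CCGG at -589 bp was at 36.9% ± 14.7 (n = 8), and the CpG at -565 bp, outside CCGG, at 15.3% ± 9.48 (n = 9). Myog showed no trough in the CpGs measured: its first 500 bp were at 78.7% ± 15.1 (n = 11) and the next 500 bp at 86.9% ± 7.32 (n = 12). Of its 7 CpGs with at least 10 reads in any sample, 6 lay inside CCGG sites, which read higher across the series, as given below. The other, at +190 bp, was at 67.3% ± 20.6 (n = 7). Myf5 was at 88.3% ± 8.37 (n = 9) in its first 500 bp, whereas its body had a mean of 53.8% ± 12.0 (n = 11).

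**Figure D2:**
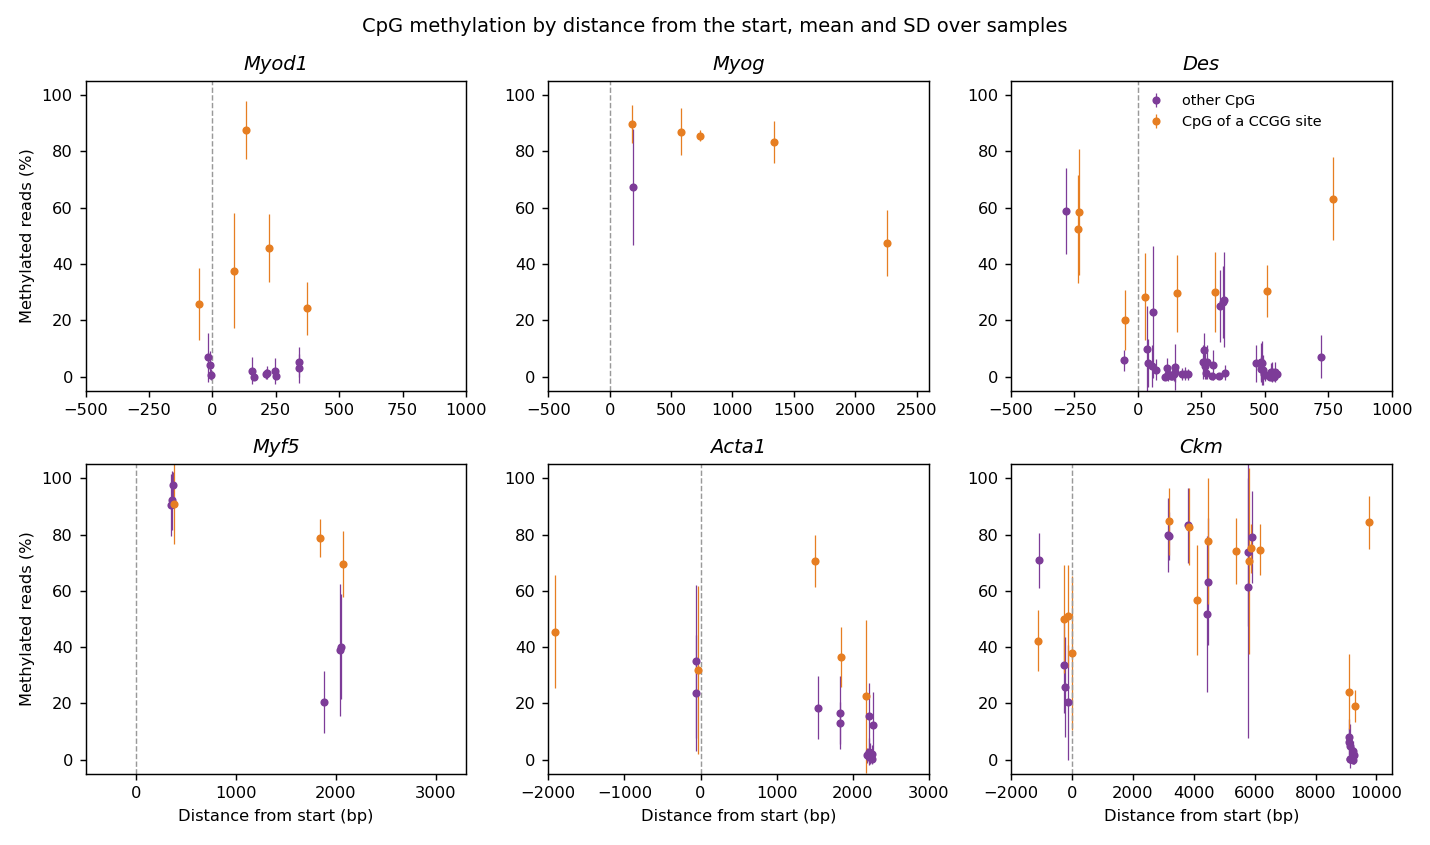
Mean percent of methylated reads at single CpGs, with SD bars over samples with at least 10 reads, against distance from the start for 6 genes (CpGs covered in at least 3 samples). Orange points are CpGs inside CCGG, the MspI site, and purple points all other CpGs. In Myod1 and Des the purple points lie mostly below 10% and the orange points above 20%.

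Adjacent CpGs of the same fragment could differ widely, and the difference followed the MspI site. Among the 508 CpGs with at least 10 reads in at least 1 sample, the 147 inside CCGG had a median of 44.6%, and 14 of them were under 20%. The other 361 had a median of 3.57%, and 272 were under 20%. In Myod1 the CCGG at +223 bp was at 45.7% ± 12.0 (n = 10), and the CpG at +246 bp, 23 bases away, at 1.85% ± 4.67 (n = 10). In Des the CCGG at +305 bp was at 30.1% ± 14.2 and the CpG at +320 bp at 0.278% ± 0.962 (both n = 12). In Ckm the CCGG at +9102 bp was at 24.2% ± 13.4 and the CpG at +9109 bp at 6.21% ± 5.07 (both n = 11). Not every CpG outside CCGG was low: in Des 49 of 58 were under 20%. Those above included 3 CpGs at +324, +337 and +339 bp, with means of 24.9%, 26.5% and 27.2% (n = 12 each), and the upstream CpG at -284 bp, at 58.9% ± 15.3 (n = 11).

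This was not particular to muscle genes. Over the whole series, 11340 cytosines of CCGG sites with at least 10 reads in all 12 samples had a median of 67.4%, against 0.833% for 26745 other CpG cytosines. CCGG sites took 22.7% to 33.9% of the reads of the 10 genes, least in sample 1 of DBP with BR extract and most in DMSO sample 3. The promoter levels moved with this choice: without CCGG sites Myod1 was at 2.48% ± 1.86 (n = 12), Pax7 at 4.38% ± 2.86 (n = 12), Des at 7.01% ± 1.92 (n = 12), Acta1 at 26.0% ± 9.82 (n = 8), Ckm at 30.8% ± 14.1 (n = 10), Myf6 at 39.2% ± 21.8 (n = 6), Myog at 71.1% ± 19.4 (n = 10) and Myf5 at 88.3% ± 9.55 (n = 8). The median of 14308 promoters fell to 0.811%. The highest Des sample (10%) was still below the lowest Acta1 sample (10.3%), but Myog, whose samples then spanned 30.8% to 89.5%, overlapped Ckm (up to 56.7%) and Myf6 (up to 67.6%). Of the 14308 promoters 76.3% were lower than Myod1, 82.1% than Pax7, 94.9% than Myog and 97.9% than Myf5. This setting was added after the data were seen, and why CCGG sites read higher was not tested.

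Gene bodies (from 1000 bp after the start to the end) were ordered differently. Acta1 was at 18.9% ± 5.21 (n = 12), Pax7 at 23.6% ± 5.19 (n = 12), Mef2c at 25.5% ± 7.58 (n = 12) and Ckm at 42.1% ± 4.37 (n = 12). Myf5 was at 53.8% ± 12.0 (n = 11), Myog at 67.8% ± 12.2 (n = 12), Des at 81.4% ± 10.2 (n = 12) and Tnnt3 at 85.1% ± 10.9 (n = 8). Acta1, Pax7 and Mef2c did not differ beyond their SDs, nor did Des and Tnnt3. Only 8.38% of 14760 bodies with at least 100 reads were lower than Acta1, 9.23% lower than Pax7, 10.9% lower than Mef2c and 18.0% lower than Ckm, where the median body was at 76.6%. Without CCGG sites Acta1 fell to 10.8% ± 4.62, Pax7 to 12.9% ± 3.86, Mef2c to 21.0% ± 8.80 and Ckm to 33.2% ± 4.35 (n = 12 each). These body levels depended on which CpGs were pooled. With equal weight for each CpG at 10 reads in all 12 samples, Pax7 was at 45.8%, on 6 of its 252 measured CpGs. In that setting Ckm was at 81.3%, above the median body, on 3 of 58, all in its first printed exon stretch. With only cytosines read in all 12 samples Mef2c was at 8.82%. Des, with 55.7% of bodies lower, and Tnnt3, with 58.9%, were near the middle. Myod1 had at least 10 body reads in 5 samples and Myf6 in none.

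In the long genes, divided into 20-kb bins, low CpGs were concentrated towards the start. Pax7 (96469 bp) had 185 CpGs with at least 10 reads in its first 20 kb, of which 142 were under 20% and 3 over 80%, with a median of 3.49%. Between 20 and 40 kb the median of 16 CpGs was 54.6%, and between 80 and 100 kb that of 11 CpGs was 75.0%. A second low set lay between 60 and 80 kb, where 8 of 26 CpGs were under 20% and 8 over 80%. The printed Pax7 intron stretch, between 11769 and 11889 bp after the start, held 16 measured CpGs with a median of 0.930%, of which 14 were under 20%. Mef2c (163652 bp) had 21 such CpGs in its first 20 kb with a median of 5.28%, and 8 between 20 and 40 kb, all under 20%. Its 5 CpGs between 140 and 160 kb had a median of 67.7%, and no CpG between 40 and 140 kb had 10 reads in a sample.

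**Figure D3:**
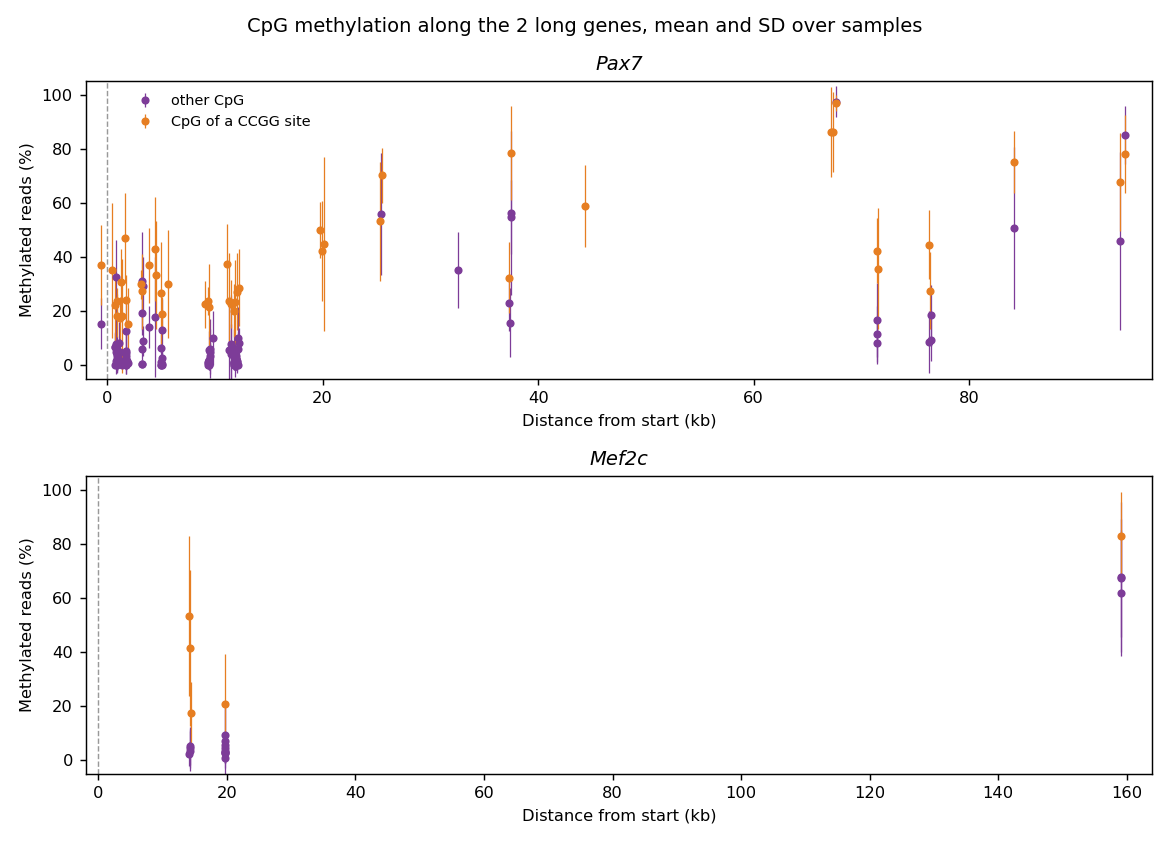
Mean percent of methylated reads at single CpGs of Pax7 and Mef2c, with SD bars over samples with at least 10 reads, against distance from the start in kb (CpGs covered in at least 3 samples). Orange points are CpGs inside CCGG and purple points other CpGs. Low CpGs are concentrated in the first 20 kb of Pax7, with further low purple points past 70 kb.

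Acta1 and Ckm were also measured further upstream. Acta1 was at 50.6% ± 17.7 (n = 12) between 1000 and 2000 bp upstream and at 37.4% ± 16.4 (n = 10) in the last 500 bp before the start. Ckm was at 57.3% ± 10.2 (n = 11) and 42.0% ± 10.4 (n = 10) in the same windows. Inside Ckm the levels split by position. The 3 CpGs of its first printed exon stretch had means between 79.4% and 84.6%, whereas 5 of 6 CpGs of the second, further along the gene, were under 20% with a stretch median of 5.55%.

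DBP against vehicle addressed whether the carcinogen altered these genes in tissue that was still histologically normal. No member promoter or body passed the test (edgeR's quasi-likelihood test, Benjamini-Hochberg adjusted p under 0.05). Of 4 promoters (Myod1, Myog, Pax7, Des) and 6 bodies (Myog, Pax7, Mef2c, Des, Acta1, Ckm) with at least 10 reads in every sample, 0 passed, 0 had an unadjusted p under 0.05, and limma also called 0. Over all genes 0% of 11844 promoters and 0% of 10523 bodies passed in edgeR, with 363 and 386 at an unadjusted p under 0.05. The Pax7 body was the member that stood apart: the DMSO samples were at 24.5%, 28.9% and 30.8%, and the DBP samples at 21.5%, 20.9% and 22.4%. All 3 DBP samples were below all 3 DMSO samples. The means were 21.6% ± 0.746 and 28.1% ± 3.19 (SD, n = 3 each), a difference of -6.45 points (SE 1.89), with an exact permutation p of 0.1 (two-sided), the smallest that 3 against 3 allow, and an edgeR adjusted p of 0.999. Without CCGG sites the difference was -4.46 points. The libraries as a whole were at 32.9%, 40.8% and 41.3% in DMSO and at 36.7%, 34.9% and 34.0% in DBP, and the part of this in the Pax7 value was not tested. Groups did not overlap in 12.3% of all bodies, against 1 of 6 member bodies, and in 10.9% of all promoters, against 0 of 4.

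In every other member region with at least 10 reads in all 6 samples, the DBP and DMSO groups overlapped. The Myog body was at 85%, 69.0% and 86.7% in DMSO and at 73.9%, 65.5% and 51.1% in DBP. The difference of -16.7 points (SE 8.73) had an exact permutation p of 0.2. It was larger than the SDs of 9.77 in DMSO and 11.5 in DBP, but rested on 15 to 45 reads in a sample. Promoter differences ranged from -2.55 points (SE 2.50) for Myog to 0.672 points (SE 3.85) for Myod1. The Des promoter differed by -0.197 points (SE 2.45), and the Ckm body by 0.476 points (SE 2.33).

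Single CpGs were tested by logistic regression on reads scaled to equal median coverage, and called at q under 0.01 and a difference over 10 points. For DBP against DMSO, 24 member CpGs had at least 10 reads in all 6 samples (14 in Des, 7 in Pax7, 3 in Ckm). None was called, and 3 had an unadjusted p under 0.05, while 0.112% of 53618 CpGs were called over the genome. edgeR called 0 of the 24, with 0 at an unadjusted p under 0.05. Over the genome it called 0 of the 39497 CpGs it tested, with 3.22% at an unadjusted p under 0.05. Among members, the smallest p-values of the logistic regression belonged to 2 Pax7 CpGs and 1 Des CpG. The Pax7 CpG at chr4:139294971, in the last exon, had 88.5%, 92.0% and 92.9% in DMSO and 52.2%, 72.7% and 93.8% in DBP, a difference of -21.4 points (q = 0.128 over all CpGs). DBP sample 3 lay above every DMSO sample and the other two below, so the groups overlapped. The difference was -5.46 points without DBP sample 1 and -32.8 without DBP sample 3. The Pax7 intron CpG at chr4:139352112 had 35.9%, 39.0% and 40.0% in DMSO and 13.8%, 15.8% and 37.2% in DBP (-16.96 points, q = 0.173), and the difference was -11.3 points without DBP sample 1. The Des CpG at chr1:75357397 had 3.03%, 10% and 0% in DMSO and 0% in each DBP sample (-5.06 points, q = 0.281), with -2.04 points without DMSO sample 2. In no member CpG did the groups separate, against 5.51% of all CpGs.

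DBP with the unnamed agent and DBP with BR extract were each compared with DBP alone, and both comparisons share the 3 DBP samples. With the agent, 0 of 4 promoters and 0 of 6 bodies passed in edgeR or limma, and 0 had an unadjusted p under 0.05, against 256 of 11844 promoters and 341 of 10523 bodies, of which 0% passed. The Myod1 promoter was higher in the 3 agent samples than in the 3 DBP samples given above, by 2.18 points (SE 0.863, exact permutation p = 0.1, edgeR adjusted p = 1.0). The Ckm body was at 35.9%, 38.3% and 39.9% with the agent and at 46.9%, 42.0% and 41.4% with DBP alone, so that the groups did not overlap. The difference was -5.41 points (SE 2.07, exact permutation p = 0.1, edgeR adjusted p = 1.0), and -5.44 points without CCGG sites. Groups did not overlap in 9.3% of all promoters and 11.7% of all bodies, against 1 of 4 and 1 of 6 members. The Pax7 body, at 21.1%, 22.0% and 21.5% with the agent, differed from DBP alone by -0.0529 points (SE 0.504).

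With BR extract, again 0 of 4 promoters and 0 of 6 bodies passed in edgeR or limma and 0 had an unadjusted p under 0.05, against 438 promoters and 379 bodies over all genes, of which 0% passed. The Myog promoter, at the values given above, was lower in every BR extract sample than in any DBP sample, with means of 76.5% ± 1.78 and 85.2% ± 3.94 (SD, n = 3 each). The difference was -8.67 points (SE 2.50, exact permutation p = 0.1, edgeR adjusted p = 1.0). The Des body was at 74.1%, 62.1% and 69.6% with BR extract and at 80%, 84.0% and 82.4% with DBP, also without overlap. Its difference of -13.5 points (SE 3.70, exact permutation p = 0.1, edgeR adjusted p = 1.0) rested on as few as 10 reads in a DBP sample. Groups did not overlap in 10.1% of all promoters and 9% of all bodies, against 1 of 4 and 1 of 6 members. The Pax7 body spread widely with BR extract, at 14.7%, 33.8% and 20.8%, and overlapped the DBP samples. Sample 1, the lowest, was the deepest library, and sample 2, the highest, had 39.3% of all its reads methylated against 29.3% in sample 1.

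Single CpGs passed the threshold with both agents. With the unnamed agent 6 of 74 member CpGs were called (8.11%), against 5.42% of 127381 CpGs over the genome. With BR extract 6 of 63 were called (9.52%), against 8.6% of 104443. The groups were separate in 3 of the 74 (4.05%) and 6 of the 63 (9.52%), against 5.49% and 5.69% of all CpGs. The median member CpG had 23 and 27 reads in a DBP library in the 2 comparisons, and 73.5 and 72 in a library with an agent. The scaling raised the read counts of the shallower libraries, and the raised counts were tested as reads. At the Ckm CpG chr7:19999633 with BR extract, the logistic regression gave q = 2.2e-09 with scaling and 0.000168 without. This logistic regression treats every read as independent and includes no spread between samples. edgeR, which includes it, called 0 of 71 and 0 of 56 member CpGs, with smallest adjusted p-values of 0.95 and 0.945. Of these, 0 and 3 had an unadjusted p under 0.05. Over the genome edgeR called 0 of the 91273 and 0 of the 74125 CpGs it tested, with 2.93% and 3.26% at an unadjusted p under 0.05. Without the scaling of coverage the logistic regression called 0 and 2 member CpGs (0% and 3.17%), beside 1.18% and 1.84% of all CpGs. In the comparison with the unnamed agent 2 of 77 were called without DBP sample 2, 3 of 90 without DBP sample 1 and 11 of 75 without DBP sample 3, that is 2.6%, 3.33% and 14.7%, beside 5.25%, 4.35% and 4.82% of all CpGs.

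The called CpGs lay in Des, Pax7 and Ckm. In the first exon of Des, 3 were higher with the unnamed agent. The CpG at chr1:75357228 had 14.3%, 13.3% and 26.1% with DBP and 38.9%, 56.9% and 22.6% with the agent, a difference of 19.96 points in the pooled scaled reads (q = 0.000288). Agent sample 3 lay inside the DBP range, and the call was lost without agent sample 2 (13.5 points) or DBP sample 1 (18.1 points). The CpG at chr1:75357241, 13 bases away and read by nearly the same reads, differed by 18.3 points (q = 0.00132), and was called neither without agent sample 1 or 2 nor without DBP sample 1 or 2 (12.0 to 18.4 points). The CpG at chr1:75357175 had 0%, 0% and 6.45% with DBP and 10.5%, 18.5% and 9.26% with the agent, and here the groups did not overlap (10.5 points, q = 0.00533). Its difference was 6.63 points without agent sample 2, 9.78 without DBP sample 1 and 8.92 without DBP sample 2, none of them called. With BR extract a Des CpG upstream of the start, chr1:75356620 at -284 bp, was lower, at 45.5%, 45.2% and 33.3% against 56.2%, 61.5% and 75.0% with DBP (-25.8 points, q = 0.000426). The groups did not overlap, and this CpG had 11 to 51 reads in a library. It was not called without BR extract sample 1 (-25.9 points), BR extract sample 3 (-19.4 points) or DBP sample 3 (-19.55 points).

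Pax7 held a CpG called with both agents, the single CpG of the shortest printed intron stretch, chr4:139378337, which lies in a CCGG site. It had 33.3%, 9.52% and 29.4% with DBP, on 17 to 21 reads. With BR extract it was at 50.3%, 47.3% and 48.2%, above every DBP sample (26.2 points, q = 3.81e-07), and the call was lost without DBP sample 2 (18.0 points, q = 0.0103). With the unnamed agent it was at 59.4%, 23.3% and 37.9%, overlapping DBP (18.5 points, q = 0.00492). That difference was 6.47 points without agent sample 1 and 9.955 without DBP sample 2, neither called, and 27.95 without agent sample 2. A CpG near the start, chr4:139388295 at +1150 bp, was lower with the unnamed agent, at 3.70%, 0% and 4.26% against 23.1%, 14.3% and 0% (-11.7 points, q = 0.000169), and was not called without DBP sample 1 (-6.40 points). With BR extract chr4:139317980 was higher by 12.5 points (q = 0.00421), at 22.5%, 43.8% and 14.7% against 9.52%, 5% and 20%. It was not called without BR extract sample 1 (13.9 points) or 2 (7.85 points), or without DBP sample 1 (11.4 points) or 2 (9.70 points). The intron CpG chr4:139352112 was higher by 13.9 points (q = 0.000528), at 43.5%, 51.6% and 22.8% against the DBP values given above. It was not called without BR extract sample 1 (12.0 points) or 2 (6.37 points, q = 0.211), or without DBP sample 1 (8.115 points) or 2 (11.9 points), and was at 27.25 points without BR extract sample 3 and 20.9 without DBP sample 3. At both of these CpGs the groups overlapped.

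In Ckm the coding exon CpG chr7:19999633 was higher with BR extract, at 100%, 95.2% and 96.8% against 86.5%, 74.1% and 60.9% with DBP. All 3 BR extract samples were above all DBP samples (19.1 points, q = 2.2e-09), and the CpG, which lies in a CCGG site, was called with any 1 sample left out (14.3 to 28.5 points). The CCGG at chr7:20005545 was lower with both agents. It had 52.0%, 46.7% and 11.1% with DBP, 21.7%, 17.6% and 30.2% with the unnamed agent (-16.6 points, q = 0.00422) and 18.5%, 13.2% and 20.4% with BR extract (-21.6 points, q = 5.75e-06). DBP sample 3 lay below every sample of both agents, so neither comparison separated the groups. With BR extract it was called with any 1 sample left out (-31.0 to -15.4 points). With the unnamed agent it was not called without agent sample 1 (-15.5 points) or 2 (-13.8 points), or without DBP sample 1 (-10.2 points) or 2 (-11.8 points), and was at -25.96 points without DBP sample 3. Its neighbour chr7:20005552, outside CCGG, had 6.45%, 5.71% and 14.3% with DBP and 0% in each BR extract sample. The groups were separate, but the difference of -8.07 points (q = 1.49e-07) was below the 10 points needed for a call.

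**Figure D4:**
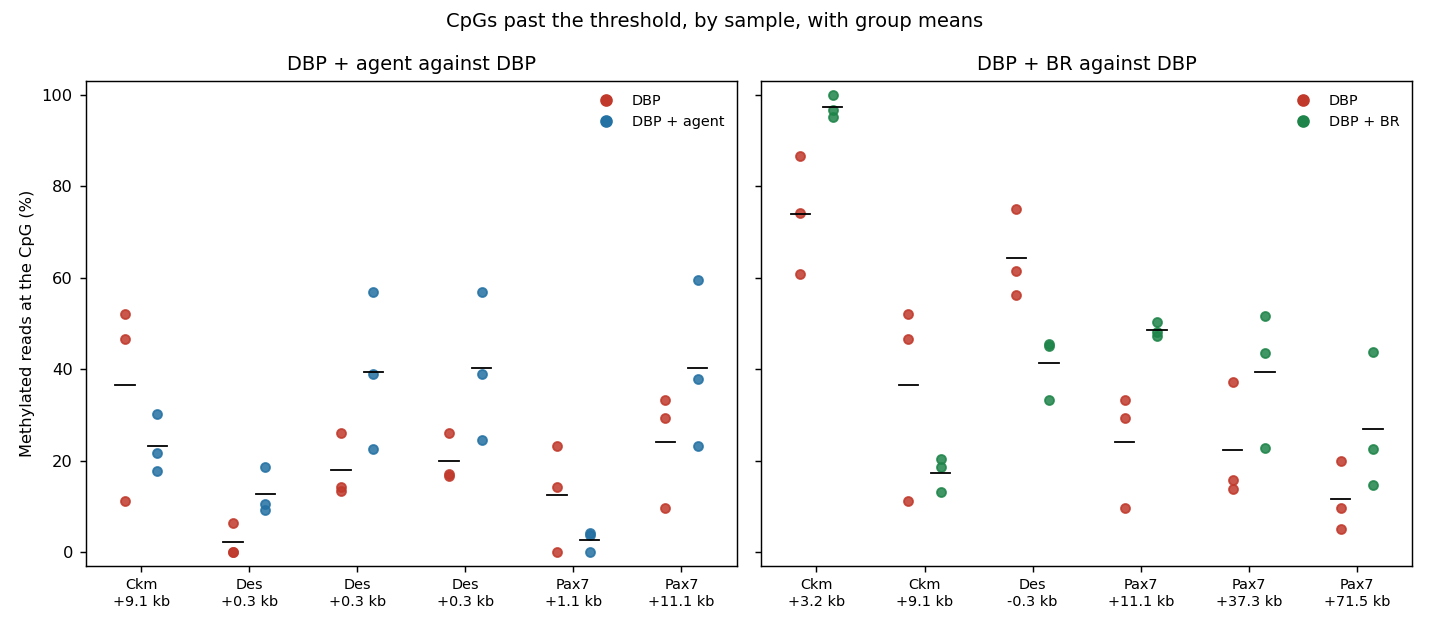
Percent of methylated reads at each CpG that passed q under 0.01 and 10 points, by sample, for DBP with the unnamed agent (left) and DBP with BR extract (right), each beside the same DBP samples. Points are samples, short lines are group means, and labels give the gene and the distance from its start. The groups are separate at 1 of 6 CpGs on the left and 3 of 6 on the right.

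CpGs inside CCGG sites were 19 of the 74 tested and 2 of the 6 called with the unnamed agent, and 16 of the 63 tested and 4 of the 6 called with BR extract. Directions were mixed: 4 of 6 called CpGs were higher in each comparison.

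The 2 wider muscle lists were read in the same fit. Of 24 skeletal muscle regulators, 18 promoters had enough reads, with a median level of 8.05%, and 13 were under 20%. In none of the 3 comparisons was a promoter or body of this list called, and 1, 0 and 2 of 18 promoters had an unadjusted p under 0.05. The promoter of Tbx1, which acts in pharyngeal muscle formation, was at 22.7% ± 6.83 with BR extract and 34.0% ± 6.26 with DBP (n = 3 each, edgeR adjusted p = 1.0). Regulator bodies had a median of 33.4%, and 0 of 18 were over 80%.

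Of 52 contractile and metabolic muscle genes, 51 were found in the annotation, but only 10 promoters had enough reads, so most of these CpG-poor starts were out of reach of the assay. Their 40 measured bodies had a median of 78.9%, and 17 were over 80%. None was called in any comparison, with 2, 1 and 1 bodies at an unadjusted p under 0.05. The body of Ryr1, the calcium release channel of the sarcoplasmic reticulum, was at 52.4% ± 1.77 with DBP and 64.5% ± 3.56 with DMSO (n = 3 each, edgeR adjusted p = 0.999). The body of Myh3, embryonic myosin heavy chain, was at 80.5% ± 1.55 and 73.5% ± 4.08 (adjusted p = 0.999). The medians of the member differences for DBP against DMSO were -0.633 points over promoters and -3.50 over bodies, beside -0.269 and -0.662 over all genes tested.

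Lists for other cell types in this tissue were read for the same libraries. Of 39 squamous epithelium genes, 23 promoters were measured, with a median of 8.32% and 20 under 20%, beside 8.05% for the muscle regulators. At an unadjusted p under 0.05 were 1, 0 and 0 of these promoters, and 0, 1 and 0 of 25 bodies. No gene of this list, or of the lists for smooth and cardiac muscle, blood cells, fibroblasts, endothelium, and nerve and Schwann cells, was called in any comparison. The share of muscle in each sample was not measured.

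The promoters whose level followed Myog most closely over the 12 samples, among 11844, were those of Chd5 (Pearson r = 0.931), Bloc1s3 (0.928), Boc (0.909), Mlst8 (0.906) and 5033430I15Rik (0.903). These are descriptions over 12 libraries that differ in depth and in their total methylation. The Chd5 promoter ranged only from 2.47% to 6.23%, and that of Boc, a cell-surface receptor with a part in muscle differentiation, from 3.18% to 17.0%, so none approached the level of Myog.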

How the data were processed

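Per the labels and the study's methods, ERRBS libraries of 12 samples (4 groups of 3) were sequenced with 6 samples in a lane; which samples shared a lane is not given in the sources used here. The authors trimmed reads with Trim Galore 0.3.3 and aligned them to mm9 with Bismark 0.10.1. They deposited, without normalization, the counts of methylated and unmethylated reads at each CpG cytosine, on each strand, and the percent methylated, which equals the counts. Duplicate reads cannot be recognised.

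The 10 genes and the gene lists were chosen with earlier results of these data known. For single CpGs, cytosines with at least 10 reads and at most the 99.9th percentile of coverage were kept, read numbers were scaled so that all libraries had the median coverage of the highest, both strands of a CpG were joined, and those found in all 6 samples were tested by logistic regression with Benjamini-Hochberg q-values, after the parameters of the study's methods (methylKit itself was not run). Reads pooled over promoters and bodies were tested with edgeR 4.0.16 (quasi-likelihood, all 12 samples, 8 residual degrees of freedom, at least 10 reads in every sample), with limma 3.58.1 as an alternative. The dispersion was estimated within 8 classes of pooled methylation. This replaced 1 dispersion for all regions, which failed on simulated data; the change was made after results had been seen, and both fits called 0 regions. Scripts were tested on simulated data. Python 3.11.15 and R 4.3.3 were used. Named were all 10 genes, called CpGs, the 3 member CpGs with the smallest p in each comparison, up to 3 list genes with the smallest p (some are not reported here), and the 5 promoters most correlated with those of Myog and Acta1 (Acta1 had too few reads). CpGs of CCGG sites were left out as an alternative added after the data were seen. The CpGs nearest to a start that reached 10 reads in each of the 12 libraries were at +305 bp in Des (30.1% ± 14.2), at +11294 bp in Pax7 (23.6% ± 17.7) and at +3170 bp in Ckm (79.8% ± 13.2).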

Additional observations from a re-analysis of the deposited data

How the results depend on the processing

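Depth set the limits: in the DMSO and DBP libraries single promoters rested on few reads, and 23 of 1413 CpGs were covered in every sample. No member promoter or body was called under any edgeR or limma setting tried, including leaving out each sample (0 to 0), with 0 calls also for 1 dispersion over all regions and without CCGG sites, both added after the data were seen. Logistic regression of pooled reads, which has no spread between samples, called 1 promoter with BR extract (Des) and 1, 1 and 2 bodies for DBP against DMSO (Pax7), the unnamed agent (Ckm) and BR extract (Mef2c and Pax7), while calling 3.49%, 9.75% and 22.5% of all promoters and 14.2%, 22.5% and 35.2% of all bodies. For single CpGs, DBP against DMSO stayed at 0 member calls in every setting. Beside this, 0.0276% to 0.45% of all CpGs were called in logistic regression and 0 of 39497 in edgeR. For the unnamed agent, the 6 calls of 74 became 0 at 25 points (0.754% of all CpGs), 16 of 157 at 5 reads (10.2%, 5.65% of all) and 3 of 34 at 20 reads (8.82%, 4.76% of all). They became 0 without scaling (1.18% of all), 0 in edgeR (0 of 91273 over the genome), and 2 to 11 with a sample left out (2.6% to 14.7%, 4.35% to 6.43% of all). For BR extract, the 6 of 63 became 2 at 25 points (3.17%, 1.01% of all), 8 of 115 at 5 reads (6.96%, 6.62% of all) and 3 of 33 at 20 reads (9.09%, 7.69% of all). They became 2 without scaling (3.17%, 1.84% of all), 0 in edgeR (0 of 74125 over the genome), and 4 to 8 with a sample left out (5.33% to 12.7%, 5.55% to 10.3% of all). Of the 12 called results, 2 passed in every leave-one-out fit (Ckm at +3190 and +9102 bp, BR extract) and 2 without scaling (Ckm at +3190 and Pax7 at +11108 bp, BR extract), and none changed sign in the settings tried. Replicate numbers did not pair the samples (correlations of same-numbered deviations -0.0188 to 0.0182 over 18 pairs). With the replicate block 0, 8 and 6 member CpGs were called (0%, 10.8% and 9.52%), beside 0.106%, 5.65% and 7.88% of all CpGs. Called member promoters and bodies were 0 and 0. Of 34 region differences, 24 changed sign in at least 1 setting. In planned settings 3 body levels moved by more than 1 SD. With equal weight for each CpG at 10 reads in all samples, Pax7 moved to 45.8% (6 CpGs) and Ckm to 81.3% (3 CpGs). With cytosines read in all samples Mef2c moved to 8.82%.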
